A study of Mus musculus with 6 samples.

Results

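The 10 genes described here encode the NF-kappaB subunits and their feedback inhibitors: Nfkb1, Nfkb2, Rel, Rela and Relb for the subunits, Nfkbia and Nfkbie for cytoplasmic IkB proteins, Nfkbiz and Bcl3 for nuclear IkB proteins, and Tnfaip3 for the enzyme A20. They were chosen by symbol, through the Ensembl mouse IDs of the count table, and not by their values. All 10 were among the 57180 genes of the table, and all 10 passed the filter on low counts. RNA sequencing had been done on adipose tissue macrophages of wild-type mice, which the study's design text describes as sorted for F4/80 and CD11b. The 3 HFD+MGIG libraries came from mice given a high-fat diet and MGIG (magnesium isoglycyrrhizinate, a salt of isoglycyrrhizic acid, which is related to the licorice compound glycyrrhizin), and the 3 HFD libraries from mice given a high-fat diet alone, so both groups share the diet and the genotype. The labels name white adipose tissue as the source and give no age, sex, dose or treatment time, nor whether each library came from a separate animal; in their extraction protocol the RNA is that of tissue. The p-values thus reflect variation among libraries, part or all of which may be technical.

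NF-kappaB is a dimer of Rel-family proteins that is held in the cytoplasm by IkB proteins until a signal from Toll-like, TNF or IL-1 receptors activates the IkB kinase complex, which marks the IkB protein for destruction. The freed dimer enters the nucleus and binds kappaB sites in the promoters of inflammatory genes. Its targets include the genes of its own inhibitors, so that the response is shut off again by newly made IkB proteins and by A20, and the family is known in adipose tissue macrophages for its part in the inflammation of obesity.

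The libraries differed in depth and make-up between the groups. Total counts ranged from 2214456 to 4904302 in HFD+MGIG and from 14437605 to 16740417 in HFD. Gene families taken as silent in macrophages, such as olfactory and taste receptor genes, held 2.93% to 6.42% of counts in HFD+MGIG and 0.0624% to 0.280% in HFD. HFD+MGIG 2 stood apart: across genes, its log2(CPM + 1) correlated with that of HFD libraries at Pearson's r of 0.732 to 0.773, and that of HFD+MGIG 1 and 3 at 0.859 to 0.916. The 15 macrophage markers, F4/80 and CD11b included, summed to 7476 to 18950 CPM in HFD+MGIG and to 17520 to 19430 CPM in HFD, and none was at 0 in a whole group. Endothelial markers summed to 529 to 992 CPM in HFD+MGIG and to 2399 to 2845 CPM in HFD, with 12 of 12 lower in the test described below, where 0 of the 15 macrophage markers were called. Pericyte and smooth muscle markers summed to 454 to 821 CPM in HFD+MGIG and to 1277 to 1940 CPM in HFD, with 7 of 8 lower. Fibroblast markers summed to 1287 to 1943 and 2576 to 3985 CPM, and adipocyte markers to 1535 to 2203 and 3591 to 5712 CPM, in HFD+MGIG and HFD, with 6 of 8 and 7 of 8 lower. That test called 17.8% of all genes lower and 42.9% higher, and 25.0% and 26.2% of protein-coding genes. Of the other panels, 2 of 6 NK cell, 2 of 6 B cell, 1 of 8 T cell, 1 of 5 neutrophil and 1 of 8 dendritic cell markers were higher. Lower were 1 of 8 T cell, 2 of 8 dendritic cell and 3 of 6 epithelial markers, and 0 of the NK cell, B cell and neutrophil markers. CPM are counts divided by the library's total and scaled to a common size. The part of depth, silent-family counts and other cell types in the results on NF-kappaB genes was not tested, and in bulk samples fewer cells of a type and less RNA per cell cannot be told apart.

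Per kb of exon, the inhibitor genes Nfkbia, Nfkbiz and Tnfaip3 were the most abundant members and Nfkb1 the least, with the inhibitor genes Bcl3 and Nfkbie below the subunits Rela and Rel. Nfkbia had 706 ± 236 CPM per kb in HFD+MGIG and 1141 ± 210.5 CPM per kb in HFD (mean ± SD, n = 3 libraries each, as throughout). Nfkbiz followed with 83.6 ± 41.6 and 192 ± 17.9 CPM per kb, and Tnfaip3 with 49.6 ± 27.0 and 129 ± 9.77 CPM per kb. Rela had 23.8 ± 9.82 CPM per kb in HFD+MGIG and 44.7 ± 1.02 in HFD, and Rel had 18.2 ± 7.80 and 34.0 ± 3.48. The other 5 genes lay between 5.30 and 10.7 CPM per kb on average in HFD+MGIG and between 5.62 and 18.03 in HFD. The first 7 places, from Nfkbia through Nfkbiz, Tnfaip3, Rela, Rel and Bcl3 to Nfkbie, and the tenth place, Nfkb1, were the same in both groups, while Nfkb2 and Relb exchanged places 8 and 9. In HFD, neighbours from Nfkbiz down to Rel were further apart than their SDs, whereas Bcl3 and Nfkb2 were each within the SD of Nfkbie from its mean. In HFD+MGIG the ranges of mean ± SD of neighbours overlapped from Nfkbiz down to Nfkb1.

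**Figure D1:**
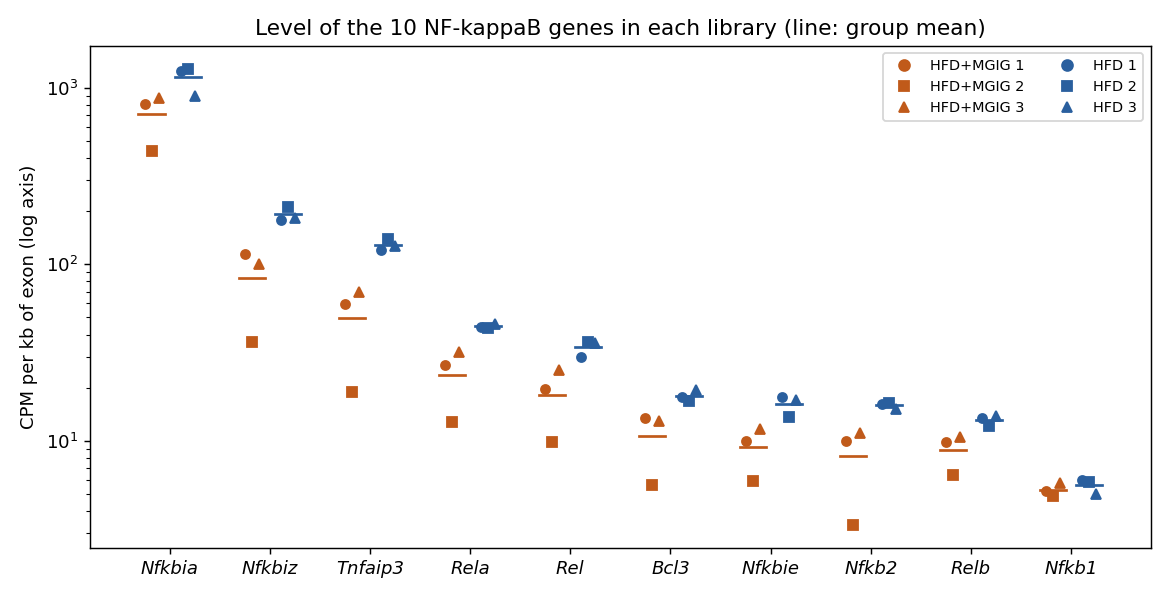
Level of each NF-kappaB gene in CPM per kb of exon, on a log axis, for the 3 HFD+MGIG libraries (orange) and the 3 HFD libraries (blue); marker shapes give the library number and lines the group means. Nfkbia stands highest and Nfkb1 lowest in both groups, and HFD+MGIG 2 is the lowest library for all 10 genes.

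Most NF-kappaB genes were lower in the HFD+MGIG libraries, subunits and inhibitors alike. In edgeR's quasi-likelihood test over all 23055 filtered genes, 8 of the 10 fell at an adjusted p under 0.05 and 0 rose, 4 of 5 subunits and 4 of 5 inhibitors. The exceptions were Nfkb1 and Nfkbia. In the same fit 60.8% of all genes were called, 17.8% lower and 42.9% higher. Of protein-coding genes 25.0% were lower and 26.2% higher, and of the 2604 genes with little background, defined further on as background-limited, 43.0% were lower and 2.11% higher. The 10 genes had a median log2 fold change of −1.13, against −0.91 for the background-limited genes and 0.38 for all filtered genes. CPM values did not overlap between the groups for 9 of the 10 genes, all lower in HFD+MGIG, which held for 23.7% of all filtered genes and for 68.0% of background-limited genes, while 48.9% of all filtered genes were higher without overlap. The count of 8 rested on single libraries: it was 4, 5, 4 and 0 without HFD+MGIG 3, HFD 1, HFD 2 and HFD 3, with 5 of the 10 at an unadjusted p under 0.05 in the last case, and 9 without HFD+MGIG 2. It was also 4 with library totals in place of TMM factors, and 0 when genes needed at least 5 CPM in 3 libraries.

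Among the subunits, Rela and Rel carry transactivation domains and make up the canonical dimers. Rela (ENSMUSG00000024927; mm10 chromosome 19, 5637483 to 5648130, plus strand) had 82.2, 39.3 and 97.5 CPM in HFD+MGIG 1, 2 and 3, against 136, 135 and 141 CPM in HFD 1, 2 and 3. The HFD values lay close together, all above the highest HFD+MGIG value, and HFD+MGIG 2 was far below the other libraries. Rela fell by 1.18 on the log2 scale (SE 0.422, edgeR adjusted p = 0.0290), and the call was lost without HFD 2 (adjusted p = 0.0568) or HFD 3 (0.0739). Rel (ENSMUSG00000020275; chromosome 11, 23736847 to 23770970, minus strand), the subunit c-Rel that is abundant in blood-derived cells, had 146, 73.2 and 188 CPM in HFD+MGIG 1, 2 and 3, against 224, 270 and 268 CPM in HFD 1, 2 and 3. Here too the groups did not overlap, with HFD+MGIG 3 nearest to HFD. Rel fell by 1.19 on the log2 scale (SE 0.465, edgeR adjusted p = 0.0427), and this call was lost when any library other than HFD+MGIG 2 was left out (adjusted p = 0.0536 to 0.106).

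Relb and Nfkb2 encode the partners of the non-canonical pathway, Nfkb2 as a precursor that is cut to the DNA-binding form. Relb (ENSMUSG00000002983; chromosome 7, 19606217 to 19629438, minus strand) had 38.1, 24.8 and 40.8 CPM in HFD+MGIG 1, 2 and 3, against 52.5, 47.2 and 53.4 CPM in HFD 1, 2 and 3. The gap between the groups was small, and HFD+MGIG 2 rested on 55.07 estimated counts. Relb fell by 0.84 on the log2 scale (SE 0.315, edgeR adjusted p = 0.0355), and did not pass without HFD+MGIG 3 or without any single HFD library (adjusted p = 0.0669 to 0.103). Nfkb2 (ENSMUSG00000025225; chromosome 19, 46304320 to 46312385, plus strand) had 46.0, 15.4 and 51.0 CPM in HFD+MGIG 1, 2 and 3, against 74.1, 74.7 and 69.9 CPM in HFD 1, 2 and 3. HFD+MGIG 2 held about 33.6 estimated counts of it, and the other 2 HFD+MGIG libraries were also below every HFD library. Nfkb2 fell by 1.21 on the log2 scale (SE 0.433, edgeR adjusted p = 0.0292; 0.0532 without HFD 3). Exons of Psd and AC114539.1 on the opposite strand cover 6.52% and 11.6% of the Nfkb2 exon length, and the labels state no strand for the counts, so reads there cannot be told apart.

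Nfkb1 (ENSMUSG00000028163; chromosome 3, 135584655 to 135691547, minus strand), which encodes the precursor of the DNA-binding partner of Rela, was the member whose groups overlapped in CPM. It had 62.7, 59.2 and 69.9 CPM in HFD+MGIG 1, 2 and 3, against 72.0, 70.9 and 60.5 CPM in HFD 1, 2 and 3. For Nfkb1 the estimate was −0.39 on the log2 scale (SE 0.306, edgeR adjusted p = 0.267), and none of 13 alternative settings called it (adjusted p = 0.189 to 0.953). It is also the longest member, with 12.1 kb of exon, so that background scaled by length weighs most on it. The background bound of a gene was set in each library from the silent families, as the 90th percentile of their CPM per kb times the exon length of the gene. For Nfkb1 the bound was 63.1, 114 and 55.3 CPM in HFD+MGIG 1, 2 and 3, against 1.54, 5.08 and 2.57 CPM in HFD 1, 2 and 3. Its HFD+MGIG levels were thus at or below the bound in 2 of 3 libraries, and its HFD levels were 13.95 to 46.7 times the bound. On the TMM scale of the test the groups did not overlap, with 62.2, 45.0 and 64.6 CPM in HFD+MGIG 1, 2 and 3, against 75.2, 85.4 and 68.9 CPM in HFD 1, 2 and 3. The median silent-family density was also subtracted from the unscaled CPM, a step chosen after seeing the data. Nfkb1 then had 46.7, 30.2 and 54.1 CPM in HFD+MGIG and 72.0, 69.8 and 60.2 CPM in HFD, without overlap. The step took 25.4%, 48.95% and 22.7% of its level in HFD+MGIG 1, 2 and 3, and 0%, 1.495% and 0.517% in HFD 1, 2 and 3. It thus lowers HFD+MGIG more by construction, and the lack of overlap is a description only. The share of all genes without overlap was not computed for TMM-scaled or subtracted values.

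Nfkbia and Nfkbie encode the cytoplasmic inhibitors IkB-alpha and IkB-epsilon, both induced by NF-kappaB itself. Nfkbia (ENSMUSG00000021025; chromosome 12, 55489410 to 55492647, minus strand) had 1292, 704 and 1412 CPM in HFD+MGIG 1, 2 and 3, against 2006, 2059 and 1447 CPM in HFD 1, 2 and 3. HFD 3 lay just above HFD+MGIG 3, so that the groups were separated by a narrow gap. For Nfkbia the estimate was −0.98 on the log2 scale (SE 0.528, edgeR adjusted p = 0.121). It passed the threshold in DESeq2 (adjusted p = 0.0205), in limma voom (0.0285) and without HFD+MGIG 2 (−0.70, edgeR adjusted p = 0.0134). With at least 46.4 times its bound in every library, Nfkbia was the member least touched by background. Nfkbie (ENSMUSG00000023947; chromosome 17, 45555703 to 45563169, plus strand) had 30.6, 18.1 and 35.7 CPM in HFD+MGIG 1, 2 and 3, against 54.2, 41.6 and 51.7 CPM in HFD 1, 2 and 3. The lowest HFD library, HFD 2, was above the highest HFD+MGIG library, and HFD+MGIG 2 held 40 estimated counts. Nfkbie had the smallest p of the members and fell by 1.07 on the log2 scale (SE 0.335, edgeR adjusted p = 0.0154; 0.0515 without HFD 3).

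Nfkbiz and Bcl3 encode nuclear IkB proteins, which bind NF-kappaB dimers on DNA and act as co-regulators of transcription. Nfkbiz (ENSMUSG00000035356; chromosome 16, 55811375 to 55838899, minus strand), whose product IkB-zeta is needed for Il6 induction in mouse macrophages, had 576, 183 and 501 CPM in HFD+MGIG 1, 2 and 3, against 898, 1064 and 923 CPM in HFD 1, 2 and 3. All HFD+MGIG libraries were well below HFD, and HFD+MGIG 2 was lowest by a wide margin. Nfkbiz fell by 1.46 on the log2 scale (SE 0.556, edgeR adjusted p = 0.0379), but did not pass without HFD+MGIG 3 or without any one of the HFD libraries (adjusted p = 0.0529 to 0.0989). Bcl3 (ENSMUSG00000053175; chromosome 7, 19808462 to 19822770, minus strand) had 33.5, 14.0 and 32.0 CPM in HFD+MGIG 1, 2 and 3, against 43.8, 41.9 and 48.1 CPM in HFD 1, 2 and 3. HFD+MGIG 2, with 31 counts, was the only library under its bound of 23.3 CPM, and the groups did not overlap. The fold change of Bcl3 was −1.01 on the log2 scale (SE 0.368, edgeR adjusted p = 0.0320), lost without HFD 3 (0.0848) or HFD+MGIG 3 (0.0659). An exon of Gm16175 on the opposite strand covers 6.51% of the Bcl3 exon length.

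Tnfaip3 (ENSMUSG00000019850; chromosome 10, 19000910 to 19015657, minus strand) encodes A20, a ubiquitin-editing enzyme that shuts off signalling upstream of the IkB kinases. It had 433, 137 and 506 CPM in HFD+MGIG 1, 2 and 3, against 871, 1010 and 919 CPM in HFD 1, 2 and 3. No HFD+MGIG library came near HFD, and the mean of HFD+MGIG was 0.384 of that of HFD, the lowest ratio of the 10 genes. Tnfaip3 fell by 1.65 on the log2 scale (SE 0.574, edgeR adjusted p = 0.0261), the largest change among the members, and the call was lost without HFD 3 (adjusted p = 0.0636).

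Set against their background bounds, the members fell into tiers. All 10 were above the bound in every HFD library. In HFD+MGIG 2, 5 of the 10 were at or below it, namely Nfkb1, Nfkb2, Relb, Nfkbie and Bcl3. In HFD+MGIG 1 and 3, Nfkbia, Nfkbiz and Tnfaip3 were more than 10 times above the bound, and the others except Nfkb1 were 1.87 to 6.93 times above it. Rel and Rela in HFD+MGIG 2 were 1.04 and 1.36 times their bounds.

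**Figure D2:**
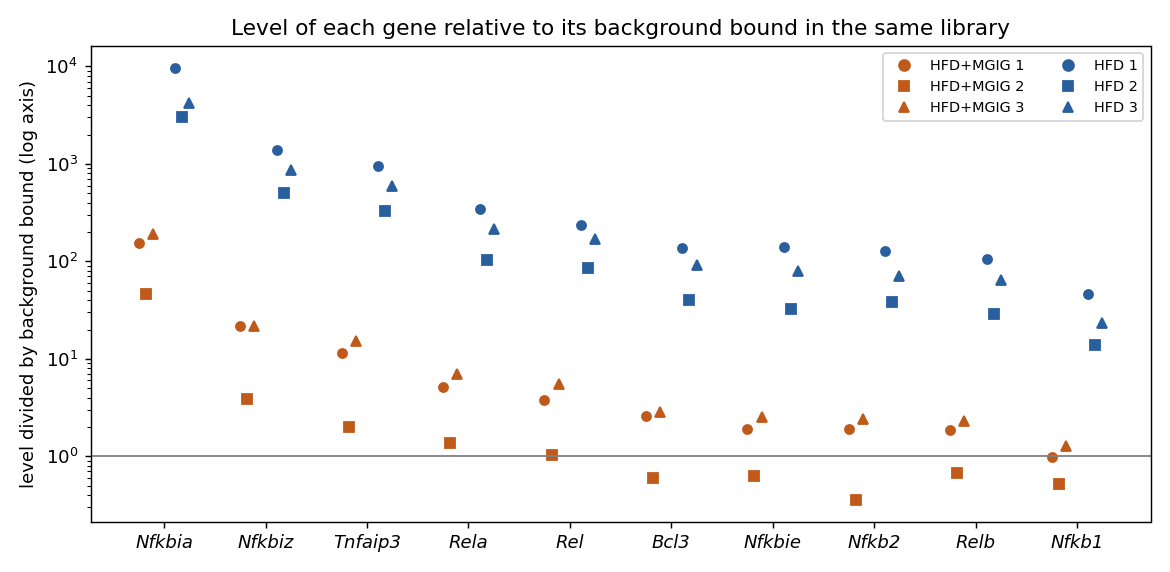
Level of each gene divided by its background bound in the same library, on a log axis, for HFD+MGIG (orange) and HFD (blue); the grey line marks a level equal to the bound. HFD libraries lie above the line for all 10 genes, while HFD+MGIG 2 is at or below it for 5 genes and HFD+MGIG 1 also for Nfkb1.

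On a scale set by genes with little background over both groups, the fitted members had log2 fold changes nearer 0. To be background-limited, a protein-coding gene outside the silent families needed 2 or more exon blocks and a bound that, averaged over the 6 libraries, did not exceed 0.25 of its mean CPM. These genes were fitted with TMM factors of their own. Rel, Rela, Nfkbia, Nfkbiz, Bcl3 and Tnfaip3 met this rule. Bcl3 lay just inside it, with a bound at 0.232 of its mean level, and Nfkbie (0.262) and Nfkb2 (0.277) just outside. Within HFD+MGIG alone, the mean bound was above 0.25 of the mean level for Bcl3 (15.9 against 26.5 CPM), Rel (47.8 against 136 CPM) and Rela (19.7 against 73.0 CPM). These 3 genes met the rule through their HFD levels, and their values in this fit are descriptions of genes that are not free of background in HFD+MGIG. Nfkbia, Nfkbiz and Tnfaip3 were under 0.25 in HFD+MGIG as well. In this fit edgeR called 0 of the 6 members, with 2 at an unadjusted p under 0.05, where 10.8% of the 2604 genes were called, 6.26% lower and 4.49% higher. DESeq2 and limma voom each called 2 of the 6 lower, Tnfaip3 and Nfkbiz. Of the 2604 genes DESeq2 called 416, with 228 lower and 188 higher, and limma voom called 464, with 243 lower and 221 higher.

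Tnfaip3 and Nfkbiz kept the lowest fold changes on that scale and Nfkbia had the one nearest 0. Tnfaip3 stood at −0.78 on the log2 scale (SE 0.252, edgeR adjusted p = 0.0869; DESeq2 −0.80, adjusted p = 0.0210; limma voom −0.68, adjusted p = 0.0361). It was called by edgeR when HFD+MGIG 3 was left out (−1.06, adjusted p = 0.0434), and over 16 alternative settings it ranged from −1.06 to −0.54. Nfkbiz had −0.59 (SE 0.204, edgeR adjusted p = 0.106; DESeq2 −0.61, adjusted p = 0.0430; limma voom −0.53, adjusted p = 0.0300), with a range of −0.71 to −0.29. Rela had −0.25 (SE 0.162, edgeR adjusted p = 0.367) and Rel −0.25 (SE 0.184, edgeR adjusted p = 0.434). Rela stood at 0.0084 after removal of the trends with GC content and length. Bcl3 had −0.09 (SE 0.172, edgeR adjusted p = 0.764) and Nfkbia −0.02 (SE 0.175, edgeR adjusted p = 0.948). For Nfkbia and Bcl3 the sign of the fold change turned under some alternative settings. With the rule relaxed to a bound of 0.5 of the mean level, 4798 genes including 9 of the members were fitted. Of the 9, 0 passed in edgeR, with 2 at an unadjusted p under 0.05, where 461 of the 4798 genes were called, 235 lower and 226 higher. There Nfkb2, Nfkbie and Relb had log2 fold changes of −0.35, −0.16 and 0.09 (edgeR adjusted p = 0.350, 0.607 and 0.745). Within HFD+MGIG alone, the mean bound was above 0.5 of the mean level for Nfkb2 (29.4 against 37.45 CPM), Nfkbie (19.5 against 28.1 CPM), Relb (24.9 against 34.6 CPM) and Bcl3. These genes met the relaxed rule through their HFD levels, and their values in this fit are descriptions.

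**Figure D3:**
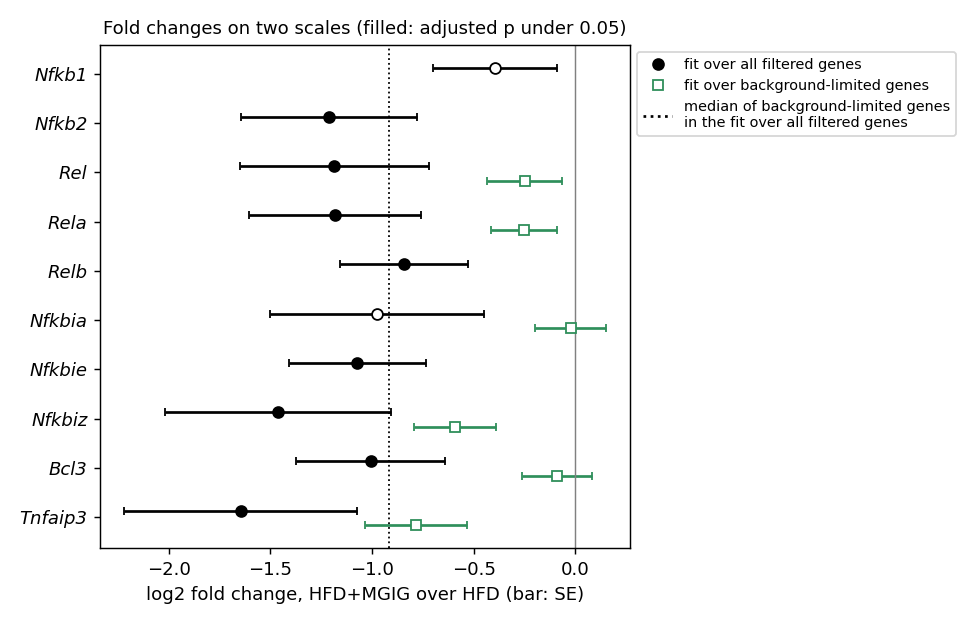
Log2 fold change of each gene, HFD+MGIG over HFD, with its SE, in the fit over all filtered genes (black circles) and in the fit over background-limited genes (green squares, 6 genes); filled symbols have an edgeR adjusted p under 0.05 and the dotted line is the median of the background-limited genes in the first fit, −0.91. The circles of Nfkb1 and Relb lie to the right of the dotted line and those of the other genes to its left, furthest for Nfkbiz and Tnfaip3.

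Ratios between members within a library do not depend on how libraries are scaled, although background still enters them. These ratios were chosen after seeing the data. Per kb, Tnfaip3 stood at 0.0746, 0.0435 and 0.0798 of Nfkbia in HFD+MGIG 1, 2 and 3, against 0.0967, 0.109 and 0.142 in HFD 1, 2 and 3. The ratio was lower in every HFD+MGIG library than in any HFD library. Nfkbiz stood at 0.143, 0.0834 and 0.114 of Nfkbia in HFD+MGIG 1, 2 and 3, against 0.144, 0.166 and 0.205 in HFD 1, 2 and 3, so the groups nearly touched at HFD+MGIG 1 and HFD 1. Of the 2603 background-limited genes other than Nfkbia, 9.80% had a ratio to Nfkbia whose groups did not overlap with HFD+MGIG lower, and 7.38% with HFD+MGIG higher. An exact two-sided permutation test of 3 against 3 libraries cannot give a p under 0.1 for such a ratio. Subtracting the median background left both ratios without overlap.

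The balance of Rel and Rela overlapped between the groups. The ratio of Rel to Rela was 0.731, 0.766 and 0.795 in HFD+MGIG 1, 2 and 3, against 0.677, 0.826 and 0.783 in HFD 1, 2 and 3. Nfkbia stood at 30.0, 34.2 and 27.6 times Rela in HFD+MGIG, against 28.1, 29.2 and 19.6 times in HFD, also with overlap. Of the counts per kb on the 5 subunits, Rela held 36.5% ± 1.85 in HFD+MGIG and 39.4% ± 1.01 in HFD, and Rel 27.9% ± 1.83 and 30.0% ± 2.36. Relb held 14.4% ± 2.44 in HFD+MGIG and 11.6% ± 0.859 in HFD, and stood at 0.366, 0.4999 and 0.331 of Rela in HFD+MGIG 1, 2 and 3, against 0.304, 0.277 and 0.300 in HFD 1, 2 and 3. Before subtraction of background, the Rela share was lower and the Relb share and ratio were higher in every HFD+MGIG library. Nfkb1 held 9.11% ± 3.53 in HFD+MGIG and 4.97% ± 0.566 in HFD, with HFD+MGIG 2 highest at 13.2%. After subtraction of the median background, Rela held 39.9% ± 1.15 in HFD+MGIG and 39.5% ± 0.977 in HFD, Rel 29.4% ± 1.28 and 30.0% ± 2.38, and Nfkb1 7.22% ± 2.34 and 4.94% ± 0.568. The Rela shares, like those of Relb and its ratio to Rela, then overlapped, and the Nfkb1 share remained higher in every HFD+MGIG library. However, Nfkb1 was at or below its bound in HFD+MGIG 1 and 2, and Nfkb2 and Relb were below theirs in HFD+MGIG 2. Their shares in those libraries cannot be told apart from background. How often such shares or ratios separate the groups for other genes was not computed. The ratio of Nfkb2 to Nfkb1 was 1.93, 0.683 and 1.92 in HFD+MGIG 1, 2 and 3, against 2.71, 2.78 and 3.04 in HFD 1, 2 and 3, but 1 or both of the pair were at or below their bound in HFD+MGIG 1 and 2.

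**Figure D4:**
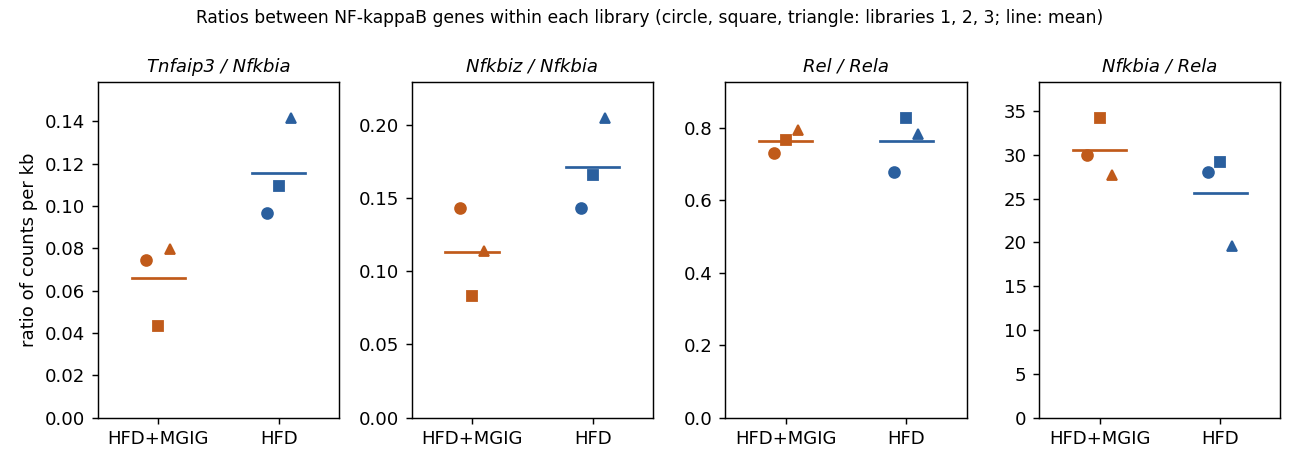
Ratios of counts per kb between pairs of NF-kappaB genes within each library, for HFD+MGIG (orange, left in each panel) and HFD (blue), with lines at the group means; each axis starts at 0. Tnfaip3 to Nfkbia is lower in all 3 HFD+MGIG libraries, at 0.0435 to 0.0798 against 0.0967 to 0.142 in HFD, and Rel to Rela overlaps.

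Promoter sequences are shown because most members were lower together in the first fit and the family is known to be transcribed in part by its own dimers. RefSeq (GRCm38.p6) gave start sites for 7 of the 10 genes; Nfkb1, Relb and Nfkbiz were not matched. The 250 bases upstream of each start were searched on both strands for the kappaB consensus GGGRNWYYCC. There R is A or G, W is A or T, Y is C or T and N is any base. Overlapping matches were merged into a stretch. A stretch was present in 7 of 10 windows, belonging to 5 of the 7 genes, and in 3.90% of the 32851 windows of all genes. Several of the 7 windows belong to Nfkb2. The genes come from a family known for such sites, so the 2 shares are a description and not a test. One window for each of these 5 genes follows, 5′ to 3′ on the strand of the gene, with the matches in capitals; for Nfkb2 and Tnfaip3, which have further start sites, it is the window with 2 stretches.
Nfkb2 (chr19:46304487-46304736, plus strand): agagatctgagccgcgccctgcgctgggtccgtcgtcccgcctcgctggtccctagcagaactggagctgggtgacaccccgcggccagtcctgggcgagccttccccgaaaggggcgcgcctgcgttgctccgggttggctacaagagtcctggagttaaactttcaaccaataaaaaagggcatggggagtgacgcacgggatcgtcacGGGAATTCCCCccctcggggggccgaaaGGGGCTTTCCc
Rel (chr11:23770970-23771219, minus strand): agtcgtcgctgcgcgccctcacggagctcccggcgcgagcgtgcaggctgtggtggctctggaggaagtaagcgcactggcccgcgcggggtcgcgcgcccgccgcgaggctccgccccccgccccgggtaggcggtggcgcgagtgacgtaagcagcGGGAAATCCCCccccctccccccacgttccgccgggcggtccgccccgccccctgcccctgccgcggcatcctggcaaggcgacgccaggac
Nfkbia (chr12:55492648-55492897, minus strand): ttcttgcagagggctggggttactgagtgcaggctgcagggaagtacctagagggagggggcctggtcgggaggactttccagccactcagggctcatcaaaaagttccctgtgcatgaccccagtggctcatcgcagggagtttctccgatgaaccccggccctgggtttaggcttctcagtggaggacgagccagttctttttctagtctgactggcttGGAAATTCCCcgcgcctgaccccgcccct
Nfkbie (chr17:45555450-45555699, plus strand): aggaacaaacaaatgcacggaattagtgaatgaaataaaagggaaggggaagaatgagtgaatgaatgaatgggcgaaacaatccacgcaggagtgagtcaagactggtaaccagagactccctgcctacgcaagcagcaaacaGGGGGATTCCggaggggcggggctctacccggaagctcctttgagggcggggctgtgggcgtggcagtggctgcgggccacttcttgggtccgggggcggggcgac
Tnfaip3 (chr10:19015411-19015660, minus strand): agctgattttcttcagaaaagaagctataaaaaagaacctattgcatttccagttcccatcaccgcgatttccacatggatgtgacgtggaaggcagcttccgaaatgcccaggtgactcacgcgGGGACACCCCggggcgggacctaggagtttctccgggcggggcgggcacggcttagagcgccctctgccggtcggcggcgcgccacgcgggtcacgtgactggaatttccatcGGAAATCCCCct
The stretch GGAAATTCCC of Nfkbia begins 29 bases upstream of the start, and GGAAATCCCC of Tnfaip3 begins 12 bases upstream. In Rel the stretch GGGAAATCCCC begins 92 bases upstream, and in Nfkbie GGGGGATTCC begins 106 bases upstream. Nfkb2 and Tnfaip3 hold 2 stretches each in these windows, which 0.143% of all windows do. Both windows were picked for that property, so the share is a description only. No match was found in the windows of Rela and Bcl3, nor in the other window of Tnfaip3. A match is a sequence, not a bound site, and the part of these sites in the fold changes was not tested.

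The lists of other pathway genes each had a median below 0 in the fit over all filtered genes, where 17.8% of all genes and 43.0% of background-limited genes were called lower. Of 29 genes of the IkB kinase complex and its upstream kinases and adaptors, 13 fell, 1 rose and 15 did not pass, with a median log2 fold change of −0.98. Ikbkg, the regulatory subunit NEMO of the kinase complex, had 20.2 ± 8.74 CPM in HFD+MGIG and 42.5 ± 5.11 CPM in HFD (−1.32, edgeR adjusted p = 0.00860). Irak2, a kinase of the Toll-like and IL-1 receptor pathway, had 31.6 ± 7.10 and 59.3 ± 2.97 CPM (−1.20, edgeR adjusted p = 0.00614). The Irak2 bound averaged 28.3 CPM in HFD+MGIG, near its mean there. Ticam1, the adaptor TRIF, had 8.73 ± 3.21 and 17.6 ± 1.09 CPM (−1.29, edgeR adjusted p = 0.00702). The gene that rose was Traf5, a TNF receptor adaptor, with 59.5, 92.6 and 76.7 CPM in HFD+MGIG 1, 2 and 3 and 30.2, 31.9 and 27.9 CPM in HFD 1, 2 and 3 (1.00, edgeR adjusted p = 0.00859). Its bound in HFD+MGIG averaged 29.2 CPM, and for Ikbkg and Ticam1 the bounds of 52.0 and 19.2 CPM were above their HFD+MGIG means. Of the 7 genes in this list that were background-limited, 0 passed on that scale in edgeR, and their median was −0.02. Of the 2604 genes there, 6.26% were called lower and 4.49% higher. Tbk1, Ripk1, Irak1, Birc2 and Bcl10 met the rule for that scale through their HFD levels. Their HFD+MGIG bounds were 25.05, 53.45, 30.2, 29.3 and 29.2 CPM against means of 60.9, 131.9, 57.7, 55.0 and 88.0 CPM. The median is thus a description only.

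Receptors that signal to NF-kappaB and the remaining IkB genes gave fewer calls. Of 17 receptor genes 5 fell and 0 rose over all filtered genes, with a median log2 fold change of −0.75, where 25.0% of protein-coding genes fell. Il1r1, the signalling IL-1 receptor, had 37.7 ± 6.98 CPM in HFD+MGIG and 71.3 ± 1.90 CPM in HFD (−1.26, edgeR adjusted p = 0.00236), with a mean bound of 40.8 CPM in HFD+MGIG. Tnfrsf1a, the main TNF receptor, had 99.5 ± 27.6 and 179 ± 6.73 CPM (−1.13, edgeR adjusted p = 0.0281), and −0.16 on the background-limited scale (edgeR adjusted p = 0.469). Ltbr, the lymphotoxin beta receptor, had 19.4 ± 7.51 CPM in HFD+MGIG and 35.7 ± 1.52 CPM in HFD (−1.14, edgeR adjusted p = 0.0140), and Tnfrsf11a, the receptor RANK, had 51.2 ± 16.2 and 82.1 ± 6.84 CPM (−0.96, edgeR adjusted p = 0.0395). On that scale 1 of 6 receptor genes rose and 0 fell, where 4.49% of the 2604 genes were called higher and 6.26% lower. Tlr4 and Tlr7 met the rule for that scale through their HFD levels. Their HFD+MGIG bounds were 35.6 and 26.2 CPM against means of 80.2 and 73.1 CPM. The gene that rose on that scale, named after its value was seen, was Ly96, the MD-2 partner of Tlr4 (0.73, edgeR adjusted p = 0.0368). It had 48.1 CPM in HFD+MGIG and 46.1 CPM in HFD on average, with overlap between the groups. Over all filtered genes its log2 fold change was −0.22 (edgeR adjusted p = 0.593). The IkB genes outside the 10, Nfkbid and Nfkbib, had log2 fold changes of −1.05 and −0.72 and did not pass (edgeR adjusted p = 0.0517 and 0.184).

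Among 16 further negative regulators of NF-kappaB, 7 fell and 0 rose over all filtered genes, with a median log2 fold change of −0.96. In the same fit 25.0% of protein-coding genes and 43.0% of background-limited genes fell, the latter with a median of −0.91. Zc3h12a, the RNase Regnase-1 that degrades inflammatory mRNAs, had 18.3, 7.22 and 30.2 CPM in HFD+MGIG 1, 2 and 3, against 57.8, 66.8 and 61.2 CPM in HFD 1, 2 and 3. Every HFD+MGIG library was below every HFD library, and the HFD+MGIG mean of 18.6 CPM was close to its bound of 18.5 CPM. Zc3h12a fell by 1.98 on the log2 scale (SE 0.443, edgeR adjusted p = 0.00212). It met the rule for background-limited genes only through its HFD level, so its value of −1.06 in that fit (SE 0.282, edgeR adjusted p = 0.0478) is given as a description. Tnip1, an A20-binding protein, had 14.8 ± 9.14 CPM in HFD+MGIG and 37.0 ± 1.22 CPM in HFD (−1.55, edgeR adjusted p = 0.00925), and its HFD+MGIG bound of 22.7 CPM was above that mean. Rnf11, another partner of A20, had 69.1 ± 21.2 and 131 ± 9.12 CPM (−1.21, edgeR adjusted p = 0.0175). Sigirr, an inhibitory receptor of the IL-1 family, had 5.75 ± 0.898 CPM in HFD+MGIG and 12.4 ± 1.79 CPM in HFD (−1.39, edgeR adjusted p = 0.00578), under its HFD+MGIG bound of 19.5 CPM.

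Among NF-kappaB target genes Il6, Icam1 and Tnfaip2 were among those that fell over all filtered genes. In that fit 8 of 30 fell, 2 rose and 20 did not pass, with a median log2 fold change of −0.85, where 25.0% of protein-coding genes fell and 26.2% rose. Il6 had 211, 154 and 197 CPM in HFD+MGIG 1, 2 and 3, against 464, 439 and 336 CPM in HFD 1, 2 and 3, without overlap (−1.44, SE 0.430, edgeR adjusted p = 0.0122). Icam1, an adhesion molecule, had 272, 117 and 341 CPM in HFD+MGIG 1, 2 and 3, against 519, 756 and 416 CPM in HFD 1, 2 and 3 (−1.50, SE 0.541, edgeR adjusted p = 0.0306). Tnfaip2 had 35.5 ± 15.5 CPM in HFD+MGIG and 91.9 ± 7.63 CPM in HFD (−1.63, edgeR adjusted p = 0.00432), near its HFD+MGIG bound of 31.9 CPM. Traf1, a TNF receptor adaptor, had 47.2 ± 2.76 CPM in HFD+MGIG and 67.9 ± 7.29 CPM in HFD (−0.84, edgeR adjusted p = 0.0233), and its bound averaged 56.5 CPM in HFD+MGIG. The 2 genes that rose, Saa3 and Il23a, were named after their values were seen and averaged 3.42 and 2.08 CPM in HFD+MGIG against bounds of 16.7 and 14.4 CPM. On the background-limited scale 0 of 18 target genes fell and 2 rose in edgeR, against 6.26% lower and 4.49% higher of the 2604 genes, and their median was 0.12. Those 2, also named after their values were seen, were the chemokine genes Ccl2 (0.75, edgeR adjusted p = 0.0196) and Ccl3 (0.96, edgeR adjusted p = 0.0338). Their mean CPM were 463 and 203 in HFD+MGIG and 444 and 175 in HFD, with overlap between the groups for both. Over all filtered genes Ccl2 and Ccl3 had −0.23 and −0.0985 (edgeR adjusted p = 0.666 and 0.833). Il6 and Icam1 had −0.41 and −0.58 on the background-limited scale (edgeR adjusted p = 0.195 and 0.215). Of the 18 genes, Ptgs2 and Il1a met the rule for that scale through their HFD levels. Their HFD+MGIG bounds were 29.3 and 12.6 CPM against means of 68.3 and 36.8 CPM.

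The mean profile of the 10 genes over the 6 libraries was led by HFD+MGIG 2. Centred on each gene's mean and averaged over the members, log2(CPM + 1) was −0.15, −1.19 and −0.02 in HFD+MGIG 1, 2 and 3, against 0.46, 0.47 and 0.43 in HFD 1, 2 and 3. Pearson's r of a member with this mean was 0.954 to 0.998 for 9 genes and 0.618 for Nfkb1. Among 7046 other protein-coding genes with a mean of at least 20 CPM, the 5 most like it were Phc2, Tbc1d10a, E2f4, Ppp2r1a and Nfic, with r of 0.9993 to 0.9997 over 6 libraries. These correlations describe libraries that share depth and make-up within each group, and no p is given for them. Phc2, a Polycomb subunit, had 47.0, 16.3 and 53.4 CPM in HFD+MGIG 1, 2 and 3, against 88.1, 87.3 and 87.7 CPM in HFD 1, 2 and 3.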

How the data were processed

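The deposited values are estimated counts for each gene in the 6 libraries and need not be whole: between 33.3% and 41.8% of the genes detected in a library held a fraction. The submitters' processing notes name the build mm10 and the tools fastp, HISAT2 and StringTie. Their versions, the counting step and its strand setting were not found in the labels. Libraries were made from low-input RNA by a SMART-Seq kit, per the labels' protocols, which amplifies cDNA without molecular identifiers, so counts are not independent molecules. Counts were rounded to whole numbers. GENCODE M21 held 51884 of the 57180 IDs and gave symbols, positions and union exon lengths; the other 5296 were tested without a symbol.

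Tests used edgeR 4.0.16 in R 4.3.3 (quasi-likelihood with robust fit, TMM, filterByExpr, the group alone in the model) with Benjamini-Hochberg adjustment over all genes fitted and a threshold of 0.05; a further fit used background-limited genes. The silent families were 1596 Olfr, Vmn1r, Vmn2r, Tas2r, Krtap and Defb genes. Alternatives were DESeq2 1.42.0, limma 3.58.1 (voom with quality weights), other scalings, filters and bounds, background subtraction, removal of GC and length trends, leaving out single libraries, and a block for the replicate number. The members, lists and background rule were chosen with earlier results of these data known. Besides the members, up to 4 genes a pathway list were named, those with the smallest p and at least 10 CPM in the higher group, and the 5 genes most like the members' mean.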

Additional observations from a re-analysis of the deposited data

How the results depend on the processing

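All 10 genes stayed below 0 in log2 fold change in every setting of the fit over all filtered genes except Nfkb1 with at least 5 CPM in 3 libraries (0.015). The count of members called there, 8, was 4 with library totals and 0 with that 5 CPM filter in edgeR (5 at an unadjusted p under 0.05), and 0 to 9 with a library left out; the cause was not tested. DESeq2's size factors and library totals moved the median log2 fold change of all genes by 0.15 and 0.35, and with library totals 81.1% of the calls were higher against 70.7% with TMM. The 14015 genes called were 23155 with no filter (more genes tested), 6156 with the 5 CPM filter (fewer genes tested) and 11781 to 17477 with a library left out. Among background-limited genes the 280 called (41.8% higher; 29.2% with library totals) were 464 with limma voom, 461 and 106 with bounds of 0.5 and 0.1 (more and fewer genes tested), 0 with the 90th percentile background subtracted (385 at an unadjusted p under 0.05), and 66 to 343 with a library left out. The 0 members called there were 2 with DESeq2 (416 genes called), 2 with limma voom and 0 to 1 with a library left out. There Nfkbia ranged from −0.181 to 0.0601 with a library left out, above 0 without HFD+MGIG 1, HFD+MGIG 2, HFD 1 or HFD 2, and stood at 0.11 and 0.50 after subtraction of the median and of the 90th percentile background; Bcl3 did with limma voom (0.0044) and with trends removed (0.16), and Rela with trends removed (0.0084). Same-numbered libraries had correlations of deviations of 0.0865, 0.268 and 0.0910, so the numbers were not taken as pairs, and HFD+MGIG 1 and 3 did not correlate best with their own number; with the number as a block, 14145 genes and 8 members were called over all genes and 212 and 0 among background-limited genes. Library depth limits the low members: the smallest value behind a level is 31 counts, for Bcl3 in HFD+MGIG 2.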
